A study of Mus musculus with 8 samples.

Results

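The proteasome genes of mouse microglia were defined as all protein-coding genes whose symbol is Psm, then a letter from a to g, then digits. This rule found 48 of the 54532 genes in the deposited count table, which holds 21995 protein-coding genes with a symbol. It uses names and no measured value, and it covers the subunits of the proteolytic core, those of the regulatory cap, the alternative activators, an inhibitor and the assembly chaperones.

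The proteasome is the barrel-shaped protease that degrades proteins tagged with ubiquitin in the cytosol and nucleus. Its 20S core is a stack of alpha and beta rings, with the proteolytic sites on the inner face of the beta rings, and the 19S cap binds ubiquitin chains, unfolds the substrate with a ring of ATPases and threads it into the core. Cells of the immune system can replace the constitutive catalytic subunits with immune forms, most of all after interferon-gamma, and the resulting immunoproteasome produces many of the peptides that are shown on MHC class I. Microglia, the resident macrophages of the brain and spinal cord, are known to express both sets.

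RNA sequencing libraries were made from microglia of the spinal cord of 4 KI and 4 WT female mice, with 1 library per mouse. The KI mice carry the knock-in that the labels name Cd11b-P2X4mCherryIN, which concerns the ATP-gated channel P2X4 (gene P2rx4), the myeloid surface protein CD11b and the red fluorescent protein mCherry. The WT mice are labelled as wild type, no label gives an age, a treatment or a batch, and none says which cells carry the changed channel or how many founders the line had. The cells were sorted as living, CD11b-positive, CD45-low and Ly6C-negative, and each library is the bulk RNA of the cells in that gate. The libraries are named by mouse number, and values are given in the order 513, 526, 528 and 549 for KI and 503, 504, 506 and 527 for WT.

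The libraries held 45167483 to 54049801 reads on genes. The microglial markers P2ry12, Tmem119, Sall1, Cx3cr1, Fcrls and Olfml3 summed to 17522 to 20325 CPM (reads as a share of the TMM-scaled library) in KI and 18937 to 21926 CPM in WT. P2rx4 itself had 862, 851, 938 and 785 CPM in the KI libraries, against 812, 741, 779 and 842 CPM in the WT libraries, a log2 fold change of 0.11 with overlapping groups, so its read count does not check the genotype labels. T and NK cell markers summed to 2.43 to 4.77 CPM in KI and 2.28 to 5.15 CPM in WT, monocyte markers to 3.13 to 10.96 CPM in KI and 5.002 to 5.89 CPM in WT, and neutrophil markers to 0.113 to 24.7 CPM in KI and 0.147 to 6.46 CPM in WT. Dendritic cell markers summed to 15.2 to 20.1 CPM in KI and 14.7 to 21.8 CPM in WT, border macrophage markers to 3.80 to 16.1 CPM in KI and 5.05 to 8.61 CPM in WT, and B cell markers to 97.1 to 116.5 CPM in KI and 81.1 to 107.7 CPM in WT, nearly all of it Cd79b. Oligodendrocyte markers summed to 73.5 to 200.1 CPM in KI and 84.2 to 176.7 CPM in WT. Endothelial markers summed to 39.1 to 49.5 CPM in KI and 30.2 to 52.3 CPM in WT, most of it Pecam1. The endothelial marker Flt1 averaged 1.95 CPM in KI and 1.75 CPM in WT, and Cldn5 0.26 and 0.02 CPM. Astrocyte markers summed to 15.5 to 42.8 CPM in KI and 12.7 to 37.4 CPM in WT, and neuronal markers to 0.444 to 11.6 CPM in KI and 2.74 to 7.19 CPM in WT. No marker of the 12 lists was at 0 in all libraries. Over these lists, an unadjusted p under 0.05 by edgeR's quasi-likelihood test was found for Tmem119 and Cx3cr1 of the microglial list, at log2 fold changes of -0.32 and -0.23, and for 3 of the 4 red cell transcripts. Such a p was found for 7.79% of all tested genes. All 4 red cell transcripts had log2 fold changes below 0, and their sum was 243.8, 118.2, 292.5 and 93.4 CPM in KI, against 152.2, 496.0, 365.2 and 478.1 CPM in WT.

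No proteasome gene passed the test for a difference between KI and WT, and most were abundant in both. Of the 48 genes, 47 were tested; Psmb11, the core subunit of thymic epithelium, had too few reads, at most 0.0928 CPM in KI and 0.0429 CPM in WT. None of the 47 reached an adjusted p under 0.05 with edgeR's quasi-likelihood test, where 0% of the 17291 genes tested did. The proteasome genes took 0.529%, 0.540%, 0.517% and 0.522% of all reads in the KI libraries, against 0.533%, 0.484%, 0.472% and 0.498% in the WT libraries, a mean of 0.527 ± 0.00998% in KI and 0.497 ± 0.0265% in WT (SD, n = 4 each). The groups overlap, since WT 503 lies among the KI values while the other WT libraries lie below them.

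Levels per length placed most of the genes among the more abundant transcripts of these cells. In CPM per kilobase of exon (RPKM), averaged over the 8 libraries, the highest were Psmb6 at 129.7, Psmb2 at 120.0, Psmc5 at 83.6 and Psmc3 at 80.8. Psmb6 stood at the 97.6th percentile of the tested protein-coding genes by this level. The lowest tested members were Psmg3 at 3.12, Psmd9 at 3.32 and Psma8 at 3.40 RPKM, with Psmg3 at the 42.0th percentile. Within the constitutive core, transcript levels ran from 11.4 RPKM for Psmb7 to 129.7 RPKM for Psmb6. Immune forms can take the places of Psmb5, Psmb6 and Psmb7, so equal numbers in the particle cannot be assumed for these genes. In the alpha ring, whose subunits Psma1 to Psma7 the particle holds in equal number, levels ran from 26.4 RPKM for Psma3 to 72.1 RPKM for Psma6. The exon length that divides these levels sums every annotated exon of a gene, so genes with long minor transcripts have understated levels. Divided by the length of the principal transcript instead, Psmb6 was again highest, at 304.2 RPKM, and the lowest gene of the constitutive core was Psmb5, at 24.9 RPKM. Psma8 alone was then lowest of the tested members, at 3.40 RPKM, with Psmd9 at 9.26 and Psmg3 at 10.2 RPKM.

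**Figure D1:**
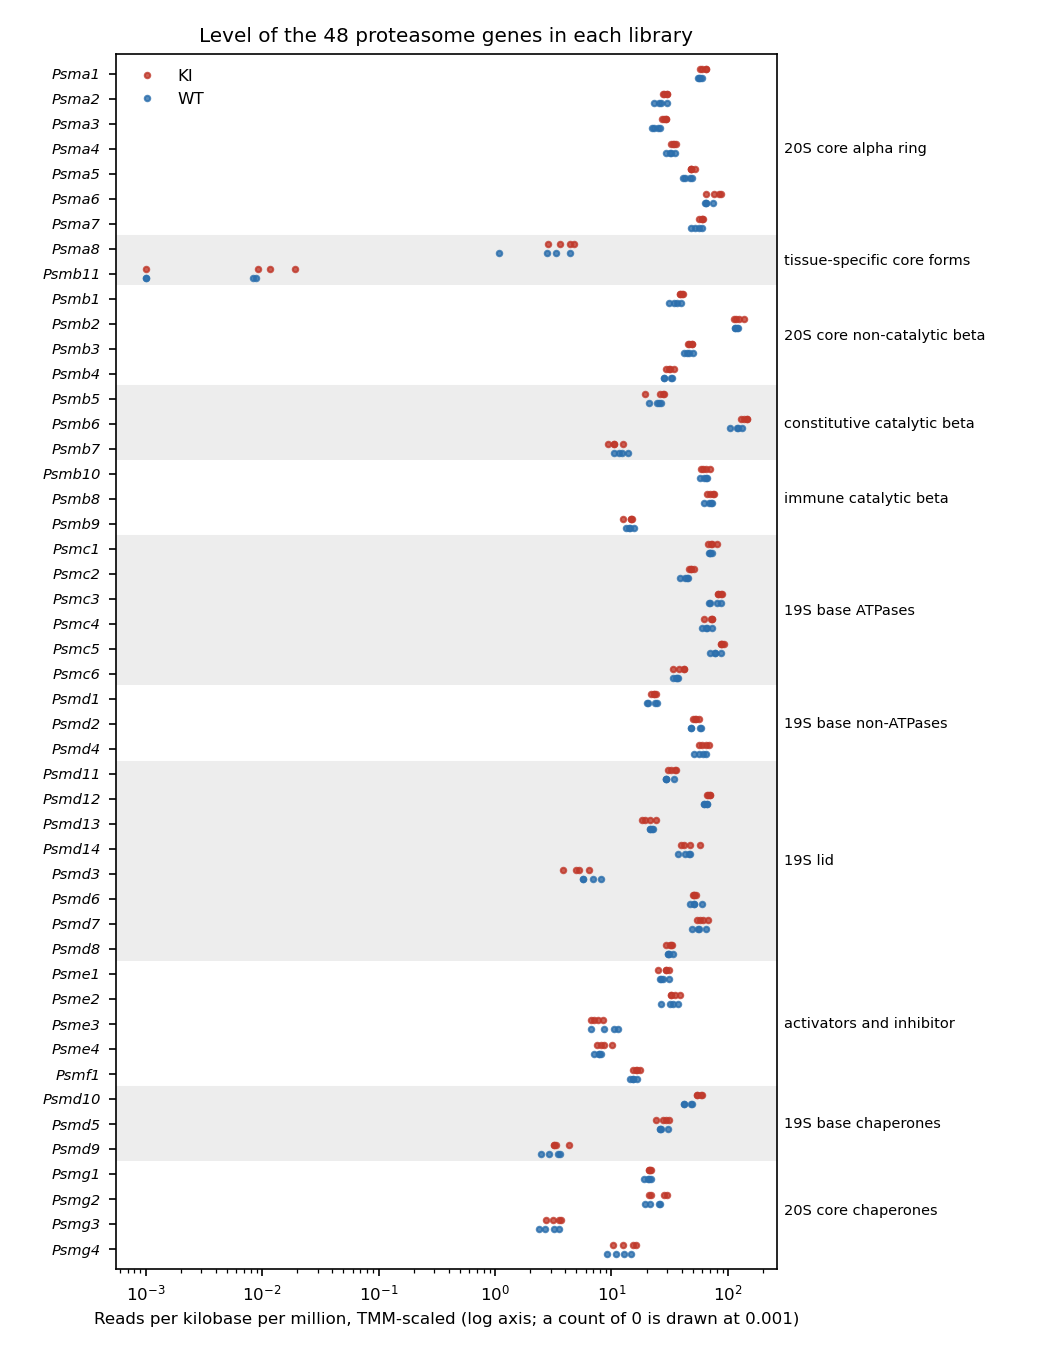
Level of each of the 48 proteasome genes in each library, in RPKM on a log axis, with KI points above WT points and the genes grouped by role; Psmb11 counts of 0 are drawn at 0.001. Most genes lie above 10 with both groups close together, and Psmb11 stands far below the rest.

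The catalytic subunits were examined in pairs, since each immune form takes the place of a constitutive form: Psmb8 (β5i) replaces Psmb5, Psmb9 (β1i) replaces Psmb6 and Psmb10 (β2i) replaces Psmb7. Psmb8 and Psmb9 lie beside the peptide transporter genes Tap1 and Tap2 in the MHC region of chromosome 17. The start regions of both genes and of their constitutive counterparts Psmb5 and Psmb6 are printed with their motif matches. The sequences are RefSeq's for build GRCm38.p6, from 250 bases before to 50 after the annotated start, 5′ to 3′ on the gene's strand. Capitals mark matches, on either strand, to TGACNNNGC (the core of the antioxidant response element), GAAA with 2 further bases and then GAAA again (an interferon-stimulated element) or TTCNNNGAA (a gamma-activated site), and no matches overlap in these windows.
Psmb8, chr17:34197945-34198244, plus strand: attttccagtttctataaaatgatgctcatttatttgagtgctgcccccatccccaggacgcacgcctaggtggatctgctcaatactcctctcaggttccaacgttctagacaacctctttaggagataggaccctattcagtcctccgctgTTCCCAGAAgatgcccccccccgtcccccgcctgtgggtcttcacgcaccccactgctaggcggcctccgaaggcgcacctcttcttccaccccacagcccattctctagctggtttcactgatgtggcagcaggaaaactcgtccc
Psmb5, chr14:54617946-54618245, minus strand: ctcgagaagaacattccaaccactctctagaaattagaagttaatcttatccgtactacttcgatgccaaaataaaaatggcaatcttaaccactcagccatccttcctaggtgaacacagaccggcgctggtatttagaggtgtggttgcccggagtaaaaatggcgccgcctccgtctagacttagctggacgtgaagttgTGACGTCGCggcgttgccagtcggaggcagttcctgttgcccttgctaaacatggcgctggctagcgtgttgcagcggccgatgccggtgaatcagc
Psmb9, chr17:34187281-34187580, minus strand: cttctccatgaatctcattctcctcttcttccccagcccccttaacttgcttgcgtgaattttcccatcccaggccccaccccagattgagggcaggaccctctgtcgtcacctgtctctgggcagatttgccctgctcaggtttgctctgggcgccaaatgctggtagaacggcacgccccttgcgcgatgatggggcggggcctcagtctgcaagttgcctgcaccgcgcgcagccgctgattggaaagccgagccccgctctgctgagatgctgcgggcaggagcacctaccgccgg
Psmb6, chr11:70525107-70525406, plus strand: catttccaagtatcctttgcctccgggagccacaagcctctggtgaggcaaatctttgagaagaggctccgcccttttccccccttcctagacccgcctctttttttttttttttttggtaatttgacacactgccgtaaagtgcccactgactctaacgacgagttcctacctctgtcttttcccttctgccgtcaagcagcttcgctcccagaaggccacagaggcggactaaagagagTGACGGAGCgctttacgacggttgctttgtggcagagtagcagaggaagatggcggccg
The windows of Psmb5 and Psmb6 hold a TGACNNNGC match, that of Psmb8 a TTCNNNGAA match and those of Psmb9 and Psmb10 no match. No window was matched for Psmb7, so its pair with Psmb10 was not compared. RefSeq start windows were matched for 40 of the 48 genes, 43 windows in all. TGACNNNGC occurred in 6 of the 43 (14.0%, against 12.4% of all 32851 windows), the interferon-stimulated element in 5 (11.6% against 3.4%) and TTCNNNGAA in 3 (7.0% against 8.3%). The matches to the interferon-stimulated element were in Psmb3, Psmd4, Psmd9, Psme1 and Psmg4, with none in an immune catalytic gene. A match describes letters in these windows and not a bound factor. TGACNNNGC and TTCNNNGAA occurred near the rate of all windows, so their matches do not show a difference between the compared pairs. In the annotation used for symbols, Psmb8 begins at 34197721 and Psmb9 at 34187764, both upstream of the printed windows.

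Immune catalytic subunits had nearly equal levels in both genotypes. Psmb8 had 182, 193, 206 and 203 CPM in the KI libraries, against 199.8, 195, 170.1 and 189 CPM in the WT libraries. The groups overlap, and the log2 fold change was 0.06 (95% interval -0.10 to 0.22, adjusted p = 0.909 by edgeR). Psmb9 had 53.4, 54, 55.1 and 45.8 CPM in the KI libraries, against 57.3, 49.2, 52.2 and 52.3 CPM in the WT libraries. Its lowest library was KI 549 and its highest WT 503, and the log2 fold change was -0.02 (95% interval -0.23 to 0.19, adjusted p = 0.982 by edgeR). Psmb10 had 101, 104, 109.7 and 119 CPM in the KI libraries, against 105, 113, 97.4 and 112 CPM in the WT libraries. The ranges overlap widely, with a log2 fold change of 0.02 (95% interval -0.16 to 0.20, adjusted p = 0.977 by edgeR). The signs of Psmb9 and Psmb10 turned when single libraries were left out, and the intervals of all 3 lie within a change of 1.5-fold either way. Psmb9 shares 212 exon bases with Tap1 on the other strand and Psmb8 shares 498 with an antisense gene, and the reads were counted without strand, so these bases cannot be assigned to either.

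The constitutive catalytic subunits did not share a direction. Psmb6 (β1, the caspase-like site) had 244, 272, 270.4 and 256 CPM in the KI libraries, against 249, 229, 195 and 226 CPM in the WT libraries. WT 503 lies within the KI range and the other WT libraries below it, and the log2 fold change was 0.21 (SE 0.0798, unadjusted p = 0.0226, adjusted p = 0.598 by edgeR). Psmb5 (β5, the chymotrypsin-like site) had 23.5, 17.5, 24.9 and 25.4 CPM in the KI libraries, against 23.1, 18.8, 22.1 and 24.1 CPM in the WT libraries. KI 526 and WT 504 were its low libraries, and the log2 fold change was 0.05 (95% interval -0.28 to 0.39). Psmb7 (β2, the trypsin-like site) had 42.7, 31.8, 36.3 and 36.2 CPM in the KI libraries, against 47.5, 35.9, 39.5 and 41.9 CPM in the WT libraries. The groups overlap at a log2 fold change of -0.17 (95% interval -0.44 to 0.11, adjusted p = 0.812 by edgeR), and 405 of its exon bases are shared with Nek6 on the other strand.

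Ratios of RNA level within a pair put the immune form above the constitutive one for the β5 and β2 sites and far below it for the β1 site. The ratio of Psmb8 to Psmb5, per kilobase, was 2.56, 3.63, 2.72 and 2.63 in the KI libraries, against 2.84, 3.42, 2.53 and 2.58 in the WT libraries, a mean of 2.88 ± 0.502 in KI and 2.84 ± 0.409 in WT (SD, n = 4 each). The ratio of Psmb10 to Psmb7 was 4.72, 6.58, 6.06 and 6.61 in the KI libraries, against 4.45, 6.32, 4.94 and 5.34 in the WT libraries, a mean of 5.99 ± 0.882 in KI and 5.26 ± 0.794 in WT. Both pairs had overlapping groups, with KI minus WT differences of 0.02 and 0.19 on the log2 scale. The ratio of Psmb9 to Psmb6 was 0.112, 0.101, 0.104 and 0.0915 in the KI libraries, against 0.118, 0.110, 0.137 and 0.118 in the WT libraries, a mean of 0.102 ± 0.00847 in KI and 0.121 ± 0.0115 in WT. Its KI minus WT difference was -0.24 on the log2 scale, with KI 513 above WT 504 and so an overlap; Psmb6 is the gene of this pair whose level differed more between the groups.

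The 3 immune genes summed to 149.6 ± 7.58 RPKM in KI and 146 ± 8.36 RPKM in WT, and the 3 constitutive genes to 175.4 ± 5.70 RPKM in KI and 156.6 ± 13.4 RPKM in WT (SD, n = 4 each). The summed immune to constitutive ratio was 0.831, 0.840, 0.847 and 0.892 in the KI libraries, against 0.872, 0.982, 0.952 and 0.931 in the WT libraries. Its mean was 0.853 ± 0.0271 in KI and 0.934 ± 0.0464 in WT, a KI minus WT difference of -0.13 on the log2 scale, and the groups overlap because KI 549 lies above WT 503. Left to Psmb8 and Psmb10 over Psmb5 and Psmb7, the difference was 0.06, and as the mean of the pairwise log2 ratios it was -0.01, so its size and sign depend on whether the pair of Psmb9 and Psmb6 is included and how it is weighted. As shares of a pair's RNA per kilobase of summed exons, the immune form made up 73.96 ± 3.01% for the β5 site, 9.28 ± 0.698% for the β1 site and 85.5 ± 2.04% for the β2 site in KI, against 73.8 ± 2.61%, 10.8 ± 0.914% and 83.9 ± 1.97% in WT. These are shares of RNA, and the subunits held in the particle were not measured. With the length of the principal transcript in place of the summed exons, the ratios over the 8 libraries became 4.25 to 6.10 for Psmb8 over Psmb5, 0.106 to 0.158 for Psmb9 over Psmb6 and 1.96 to 2.91 for Psmb10 over Psmb7, against 2.53 to 3.63, 0.0915 to 0.137 and 4.45 to 6.61 with summed exons. The order within each pair held under both lengths, and the sizes did not. Psmb10 over Psmb7 was the higher of the β5 and β2 ratios with summed exons, and Psmb8 over Psmb5 with the principal transcript.

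**Figure D2:**
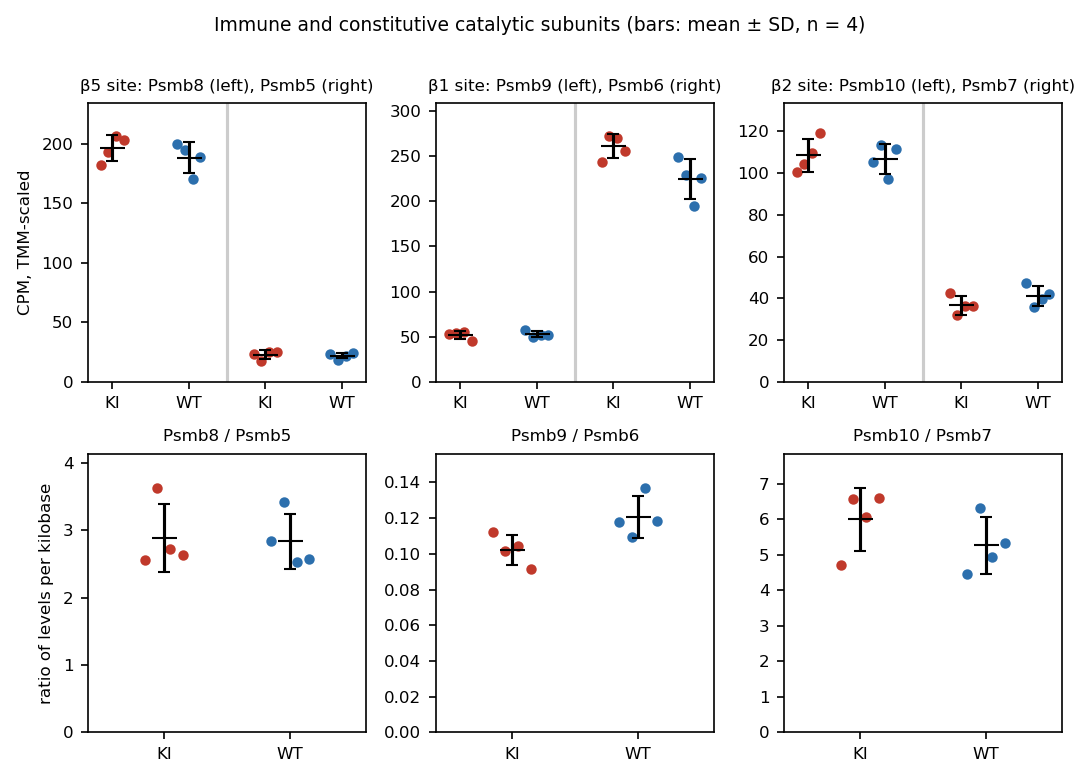
Upper row: TMM-scaled CPM of each immune catalytic subunit (left of the grey line) and its constitutive counterpart (right), KI in red beside WT in blue; lower row: the ratio of their levels per kilobase; points are libraries and bars the mean and SD of 4. The immune forms have overlapping groups of almost equal mean, and for the ratio of Psmb9 to Psmb6 the KI mean of 0.102 lies below the WT mean of 0.121.

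Psmd10 (gankyrin, a chaperone that assembles the base of the cap) had the smallest p of the 47 genes. It had 87.5, 79.9, 85.6 and 79.01 CPM in the KI libraries, against 71.1, 61.2, 61.97 and 71.9 CPM in the WT libraries. Every KI library lies above every WT library, by a log2 fold change of 0.32 (SE 0.0864, 95% interval 0.13 to 0.51, unadjusted p = 0.00401). After adjustment over all genes the edgeR p was 0.507, while DESeq2 gave an adjusted p of 0.0470 and called it, against 0.195 to 0.864 under the other alternatives; DESeq2 called 1.27% of the 10921 genes it adjusted. The other base chaperones were Psmd9 and Psmd5, which bind ATPase subunits during assembly. Psmd9 had 31.01, 24.3, 23.3 and 23.3 CPM in the KI libraries, against 20.98, 18.1, 26.1 and 25.2 CPM in the WT libraries, a log2 fold change of 0.17 with KI 513 far above the rest of its group. Psmd9 shares 1849 exon bases with a non-coding gene on the other strand, and these bases cannot be assigned to either without strand. For Psmd5 the means were 204 ± 22.4 CPM in KI and 198 ± 15.7 CPM in WT (SD, n = 4 each).

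Of the 47 tested genes, 5 had an unadjusted p under 0.05 by edgeR, all higher in KI, where 7.79% of all tested genes had such a p, 3.23% higher and 4.56% lower. They were Psmd10, Psma3, Psmb6, Psmc2 and Psmc5. For 4 genes, Psmd10, Psma3, Psmc2 and Psmd12, every KI library lay above every WT library, and for none did every KI library lie below; over all tested genes 4.94% did not overlap, 2.34% lay above and 2.6% below. Log2 fold changes were above 0 for 40 of the 47 genes (85.1%), against 50.1% of all tested genes, with a median of 0.10 against 0.00. The genes were measured in the same libraries, so these counts describe the set and carry no test of it. In bulk RNA, fewer cells of a type and less RNA per cell cannot be told apart.

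**Figure D3:**
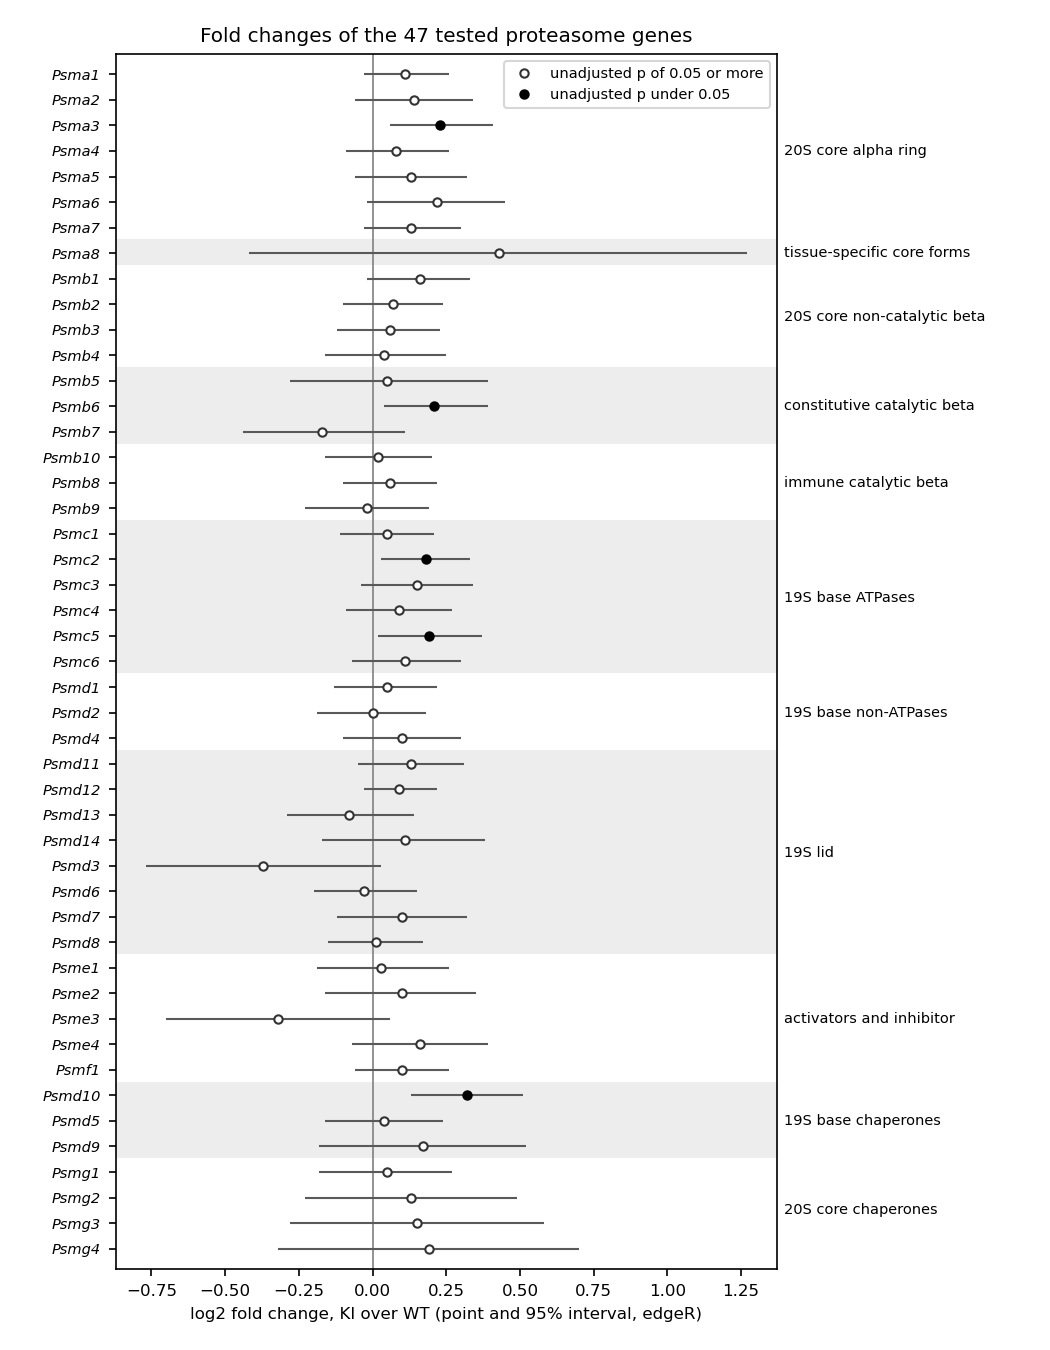
Log2 fold change of KI over WT for the 47 tested proteasome genes, with 95% intervals from edgeR, grouped by role; filled points have an unadjusted p under 0.05. Most points lie slightly right of 0, from -0.37 for Psmd3 to 0.43 for Psma8, and most intervals cross 0.

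The alpha ring, which forms the gate of the core, had all 7 of its genes above 0, with log2 fold changes of 0.08 to 0.23 and a median of 0.13. Psma3 had 107, 115, 114 and 109 CPM in the KI libraries, against 98.3, 102, 86.2 and 90.99 CPM in the WT libraries. These groups do not overlap, at a log2 fold change of 0.23 (95% interval 0.06 to 0.41, unadjusted p = 0.0116, adjusted p = 0.554 by edgeR). Psma6, the most abundant of the ring per kilobase of summed exons though not of principal transcript (85.4 RPKM, against 190.9 for Psma7), had 107, 93.1, 103 and 79.4 CPM in the KI libraries, against 91.2, 79.3, 78.8 and 79.8 CPM in the WT libraries. KI 549 lies among the WT values while the other KI libraries lie above them, with a log2 fold change of 0.22 and an unadjusted p of 0.0644 by edgeR. The other members were Psma1, Psma2, Psma4, Psma5 and Psma7, at 0.11, 0.14, 0.08, 0.13 and 0.13 on the log2 fold change scale. WT 506 was the lowest library for 6 of the 7 genes. Psma8, the testis form of an alpha subunit, had 7.53, 4.79, 6.08 and 7.998 CPM in the KI libraries, against 7.47, 1.82, 5.60 and 4.74 CPM in the WT libraries, and its interval of -0.42 to 1.27 on the log2 scale was the widest of the set.

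The non-catalytic beta genes Psmb1 to Psmb4, which shape the beta ring, lay at log2 fold changes of 0.04 to 0.16. Psmb2 had 140.4, 136, 148 and 167 CPM in the KI libraries, against 143, 138, 137 and 146 CPM in the WT libraries, and Psmb4, the least abundant of them, had 57.5, 60.95, 61.96 and 66.95 CPM in the KI libraries, against 55.5, 65.1, 55.6 and 63.8 CPM in the WT libraries. Both have overlapping groups. Psmb1 averaged 182 ± 5.41 CPM in KI and 163 ± 16.4 CPM in WT (SD, n = 4 each), with a log2 fold change of 0.16 and an unadjusted p of 0.0725 by edgeR.

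All 6 ATPases of the 19S base, the motor ring that unfolds substrates, had log2 fold changes above 0, from 0.05 for Psmc1 to 0.19 for Psmc5. Psmc2 had 242, 259, 242 and 233 CPM in the KI libraries, against 230.1, 215, 194 and 224 CPM in the WT libraries. No KI library lies below a WT library, and the log2 fold change was 0.18 (95% interval 0.03 to 0.33, unadjusted p = 0.0267, adjusted p = 0.598 by edgeR). Psmc5 had 121, 125, 121 and 129.8 CPM in the KI libraries, against 122, 108, 97.2 and 108 CPM in the WT libraries. Here WT 503 lies just above 2 KI libraries, and the log2 fold change was 0.19 (unadjusted p = 0.0361, adjusted p = 0.609 by edgeR). Psmc6, the least abundant ATPase per kilobase, had 146, 119, 133 and 147 CPM in the KI libraries, against 129, 118, 131 and 126 CPM in the WT libraries, with overlap.

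Of the other base subunits, Psmd1 and Psmd2 are the large scaffolds and Psmd4 is a ubiquitin receptor. Psmd4 had 159.8, 182, 192 and 168 CPM in the KI libraries, against 181, 171, 143 and 159 CPM in the WT libraries, and Psmd1 had 159, 169, 174 and 168 CPM in the KI libraries, against 147, 173, 150.1 and 179 CPM in the WT libraries. Both overlap, at log2 fold changes of 0.10 and 0.05. Psmd2 averaged 214 ± 9.60 CPM in KI and 215 ± 22.9 CPM in WT (SD, n = 4 each).

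The lid, which holds the deubiquitinase Psmd14 (Rpn11), was divided: 5 of its 8 genes lay above 0 and 3 below, with a median log2 fold change of 0.05. Psmd3, a scaffold subunit of the lid, had the lowest value of the whole set and also the lowest level of the lid. It had 26.1, 19.1, 24.5 and 31.99 CPM in the KI libraries, against 28.1, 28.3, 34.7 and 40.2 CPM in the WT libraries. KI 526 was lowest and WT 527 highest, the groups overlap, and the log2 fold change was -0.37 (95% interval -0.77 to 0.03, unadjusted p = 0.0646 by edgeR). Psmd12 had 176, 185, 185 and 179.8 CPM in the KI libraries, against 175, 165, 174 and 165 CPM in the WT libraries. Its groups do not overlap although the log2 fold change is only 0.09 (unadjusted p = 0.130 by edgeR), and KI 513 and WT 503 differ by less than 1 CPM. For Psmd14 the means were 132 ± 22.8 CPM in KI and 122 ± 12.2 CPM in WT, with KI 513 the highest library.

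Among the activators, Psme1 and Psme2 form PA28, the interferon-induced cap that favours peptide production, while Psme3 forms the nuclear PA28-gamma and Psme4 is PA200. Psme1 had 65.4, 64.4, 68.8 and 55 CPM in the KI libraries, against 69.5, 57.8, 59.4 and 60.9 CPM in the WT libraries, and Psme2 had 57.2, 68.2, 61.5 and 57.7 CPM in the KI libraries, against 65.7, 56.2, 47.1 and 59.8 CPM in the WT libraries. The groups overlap for both, at log2 fold changes of 0.03 and 0.10 (adjusted p = 0.969 and 0.907 by edgeR). Psme2 has a near copy on chromosome 11, Psme2b, which held 64.4% to 69.4% of the reads on the 2 genes over the 8 libraries, so the split between them is uncertain; their sum was 179.8 ± 14.2 CPM in KI and 169.3 ± 17.1 CPM in WT.

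Psme3 averaged 22.1 ± 2.36 CPM in KI and 27.5 ± 6.08 CPM in WT (SD, n = 4 each), a log2 fold change of -0.32 with overlap and an unadjusted p of 0.0914 by edgeR. Psme4 had 84.95, 72.6, 63.1 and 68.8 CPM in the KI libraries, against 68.3, 59.4, 65.6 and 65.3 CPM in the WT libraries. Only KI 528 falls among its WT values, and the log2 fold change was 0.16. The inhibitor Psmf1 (PI31) averaged 106 ± 5.54 CPM in KI and 98.8 ± 5.41 CPM in WT. The core chaperones Psmg1 to Psmg4, which join alpha subunits into rings, lay at log2 fold changes of 0.05 to 0.19. Psmg2 had 31.9, 29.9, 22.5 and 22.9 CPM in the KI libraries, against 27.5, 20.5, 27.3 and 22.5 CPM in the WT libraries, and Psmg3 had 10.7, 7.97, 10.3 and 9.11 CPM in the KI libraries, against 10.2, 6.91, 7.72 and 9.34 CPM in the WT libraries, both with overlap.

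Variation between mice was small for most of the genes. The coefficient of variation of CPM over the 8 libraries had a median of 8.79% for the 47 genes, from 4.30% for Psmd8 to 35.2% for Psma8, against a median of 14.9% for the 10171 tested genes that averaged 5 CPM or more, a comparison not matched for level. The 95% interval of the log2 fold change lay within 1.5-fold either way for 43 of the 47 genes, against 38.6% of all tested genes, and within 2-fold for 46, against 58.8%. These shares were not matched for level either. They include tested genes averaging under 5 CPM, while all 47 proteasome genes averaged at least 5 CPM.

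The small shift was not spread evenly over the libraries. The median over the 47 genes of log2 CPM minus the gene's mean was 0.06, 0.04, 0.06 and 0.04 in the KI libraries, against 0.05, -0.07, -0.12 and -0.03 in the WT libraries. WT 503 stands with the KI libraries, and WT 506 is lowest. WT 506 was the lowest of the 8 libraries for 20 of the 47 genes (42.6%, against 11.6% of all tested genes), and WT 504 for 10. Without WT 503, the groups of 14 of the genes did not overlap, all higher in KI: Psma1, Psma2, Psma3, Psma4, Psma7, Psmb1, Psmb6, Psmc2, Psmc3, Psmc5, Psmd10, Psmd11, Psmd12 and Psmf1. Over all genes, 9.94% did not overlap in either direction in that comparison of 4 with 3. WT 503 was singled out on these same genes, so a higher count without it is partly built in and gives no separate support. Without KI 549, 7 of the proteasome genes did not overlap, against 9.58% of all genes in either direction. WT 503 also had the lowest sum of red cell transcripts in its group, 152.2 CPM beside 365.2 to 496.0 CPM in the other WT libraries. In the KI libraries these sums were 243.8, 118.2, 292.5 and 93.4 CPM, beside medians of 0.06, 0.04, 0.06 and 0.04. Low red cell sums thus did not go with higher medians within KI, and the part of these transcripts in the result was not tested.

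**Figure D4:**
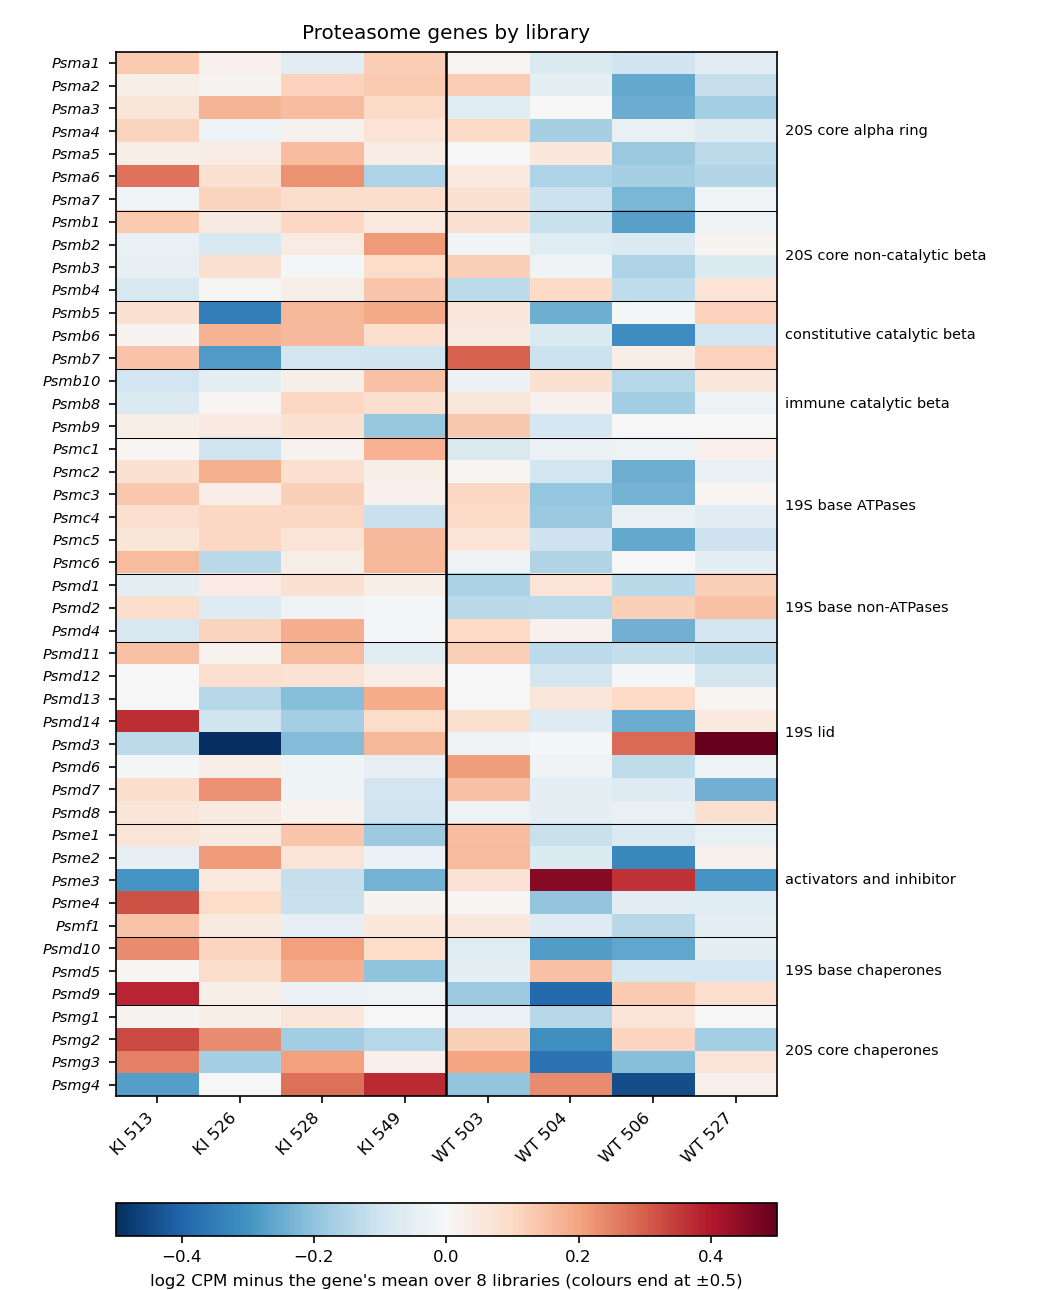
Log2 CPM of 46 proteasome genes in each library, relative to the gene's mean over the 8 libraries, with genes in rows by role and KI libraries left of the black line; Psma8 and Psmb11 are not drawn and colours end at 0.5 either way. WT 506 is blue in most core and ATPase rows, and WT 503 resembles the KI columns there.

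Genes of the pathway outside the symbol rule were divided in direction. Of 27 such genes, 16 had log2 fold changes above 0 (59.3%, against 50.1% of all tested genes) and 11 below, with a median of 0.09. The counts by kind rest on 2 to 6 genes each, too few to show a difference between kinds. Above 0 were 5 of 6 further subunits and assembly factors, 3 of 3 cap-bound enzymes, 3 of 4 ubiquitin genes and 2 of 4 transcription control genes. So were 2 of 5 shuttles, 1 of 3 genes of the Vcp group and 0 of 2 ubiquitin-activating enzymes. By edgeR, 3 of the 27 had an unadjusted p under 0.05, all lower in KI, where 4.56% of all tested genes were. Ubqln1, a shuttle that carries ubiquitinated proteins to the cap, had 125, 108, 115 and 67.1 CPM in the KI libraries, against 156, 171, 175 and 129 CPM in the WT libraries. Its groups do not overlap, with a log2 fold change of -0.60 (SE 0.176, adjusted p = 0.527 by edgeR and 0.0452 by DESeq2). Its relative Ubqln2 averaged 11.5 ± 1.83 CPM in KI and 16.1 ± 3.88 CPM in WT, and Uba1, the main ubiquitin-activating enzyme, averaged 57.7 ± 3.59 CPM in KI and 67.3 ± 3.88 CPM in WT. Sem1, a small lid subunit, averaged 46.3 ± 5.01 CPM in KI and 39.1 ± 3.65 CPM in WT with a log2 fold change of 0.24 and an unadjusted p of 0.0539 by edgeR. Uchl5, a cap-bound enzyme, averaged 66.1 ± 7.81 CPM in KI and 57.0 ± 2.71 CPM in WT (unadjusted p = 0.0585 by edgeR). Every KI library lay above every WT library for Uchl5 alone of the 27, and below for Ubqln1 alone. Over all tested genes, 2.34% lay above in this way and 2.6% below. The transcription factor Nfe2l1, which drives proteasome genes when proteasome activity is low, averaged 16.2 ± 1.48 CPM in KI and 16.8 ± 5.21 CPM in WT.

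The class I peptide path, which takes up the products of the immunoproteasome, had 6 of its 13 genes above 0 and 7 below, with a median log2 fold change of -0.06. Tap2, a subunit of the transporter that moves peptides into the endoplasmic reticulum, had 61.4, 38.3, 36.6 and 56.6 CPM in the KI libraries, against 61.4, 72.9, 72.5 and 77.2 CPM in the WT libraries. KI 513 and WT 503 had almost the same value, and the log2 fold change was -0.56 (unadjusted p = 0.00877, adjusted p = 0.533 by edgeR). Tapbp (tapasin) averaged 366 ± 35.2 CPM in KI and 423 ± 35.6 CPM in WT, at a log2 fold change of -0.21 (unadjusted p = 0.0319 by edgeR). Canx averaged 2937 ± 234 CPM in KI and 2633 ± 211 CPM in WT and the class I heavy chain H2-K1 averaged 427 ± 17.6 CPM in KI and 384 ± 43.3 CPM in WT, neither at an unadjusted p under 0.05. Tap1, Psmb9's neighbour, averaged 29.02 ± 7.47 CPM in KI and 36.5 ± 6.81 CPM in WT, with overlapping groups.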

How the data were processed

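RNA of sorted spinal cord microglia was sequenced from 4 KI and 4 WT female mice, and the groups and mouse numbers were taken from the labels. The deposited counts came from featureCounts 2.0.3, which per the file headers counted primary alignments of paired-end reads on exons, gene by gene, with no strand option, so both reads of a pair can be counted and reads of overlapping genes cannot be told apart. STAR 2.7.5c, SAMtools 1.9, R 3.6.0, edgeR, limma and build mm10 are listed in the submitters' processing notes. The authors also deposited FPKM values, with no tool given, which were used only in alternatives, and the exon length per gene, written by featureCounts per the file headers. The table's 8 other columns were not used. Symbols came from the GENCODE annotation of the build for 54495 of the 54532 gene identifiers, and 46 of the 48 proteasome genes had the same start and end in both.

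The counts were tested with edgeR 4.0.16 in R 4.3.3 (TMM scaling, filterByExpr with a minimum count of 10 and a minimum total of 15, robust quasi-likelihood test, group as the only term), with Benjamini-Hochberg adjustment over all 17291 genes tested and a threshold of 0.05. CPM and RPKM were computed with TMM-scaled library sizes, SDs are over the 4 libraries of a group, and intervals are 95% intervals. Tested on counts simulated for KI over WT with 16635 genes tested, the procedure called 74% of 100 genes changed by a log2 of 1. Of 100 genes changed by 0.5 it called 27%, so smaller changes are mostly below what it calls in such genes. The changed genes were drawn at random from those averaging 5 CPM or more. Proteasome genes varied less (median coefficient of variation 8.79% against 14.9%), and the rates for them were not measured. Alternatives were DESeq2 1.42.0, the edgeR likelihood ratio test, limma-voom 3.58.1, RLE size factors, no filter, limma on log2(FPKM + 1) and log2(FPKM + 0.1), removal of trends on length and on GC content (from GENCODE transcripts), and leaving out each library; the principal transcript length was added after seeing the data. Libraries of a group differed in their counts by far more than sampling noise (chi-square per degree of freedom of 28.7 to 65.5 over 12 pairs). Values in every library were given for the immune and constitutive catalytic genes, Psme1, Psme2, every gene with an unadjusted p under 0.05 and the most and least abundant gene of each role (per kilobase of summed exons), and of the related lists up to 4 genes with the smallest p were named, with Nfe2l1, Uchl5 and Tap1 named after their values were seen. The members, role lists, related gene lists and markers were chosen with earlier results of these data known. A further microglial marker is not reported here.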

Additional observations from a re-analysis of the deposited data

Results flagged for a closer look

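Within the WT group, the level of Psma6 in WT 503 stood apart, at 91.2 CPM beside 78.8 to 79.8 CPM in the other WT libraries. Within the KI group, the level of Psmd9 in KI 513 stood apart, at 31.0 CPM beside 23.3 to 24.3 CPM in the other KI libraries. These were found among 50 group comparisons of 4 libraries each by Dixon's test at its 95% level, which chance alone passes in about 1 in 20.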

How the results depend on the processing

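No paired analysis was possible because the KI and WT mice share no numbers. With DESeq2, 1 proteasome gene (Psmd10, log2 fold change 0.32, adjusted p = 0.047) and 139 genes in all were called, and with the edgeR likelihood ratio test 42 genes in all and 0 proteasome genes; the quasi-likelihood test and every other alternative called 0, and 1347 genes had an unadjusted p under 0.05 in the quasi-likelihood test. The number of proteasome genes whose groups did not overlap was 4, became 2 on log2(FPKM + 1) and 2 on log2(FPKM + 0.1), and ranged from 4 to 14 when single libraries were left out, with 7 without KI 549 and 14 without WT 503. The median log2 fold change of the proteasome genes ranged from 0.08 to 0.14 over all alternatives. The difference in log2 immune to constitutive ratio, -0.13, was -0.01 as the mean of the pairwise ratios, 0.06 without Psmb9 and Psmb6, and -0.16 to -0.11 when single libraries were left out. The sign turned for Psmb9 with the length trend removed (0.02) and the GC trend removed (0.06), and over left-out libraries its log2 fold change ranged from -0.05 to 0.04, that of Psmb10 from -0.03 to 0.05, of Psmb5 from -0.02 to 0.16 and of Psme1 from -0.01 to 0.10. The cause of these changes was not tested. The other 21 named proteasome genes kept their direction in every alternative run. Psmb11 had too few reads to test, and without molecular identifiers the reads cannot be counted as molecules; with 4 libraries per group, differences under about 1.5-fold are mostly below what the test calls.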
